A study of Drosophila melanogaster with 64 samples.

Results

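The sarcomere genes were 33 genes that encode the contractile apparatus of Drosophila melanogaster muscle, and they were taken from the count table by their FlyBase identifiers. All 33 matched a row of the table, which held 17752 genes. They comprised 3 myosin genes (Mhc, Mlc1, Mlc2), 4 actin genes (Act57B, Act79B, Act87E, Act88F), 5 troponin C genes (TpnC4, TpnC25D, TpnC41C, TpnC47D, TpnC73F), troponin T (up) and troponin I (wupA). The others were the tropomyosins Tm1 and Tm2, 7 genes of the thick filament and its elastic links (bt, sls, Prm, fln, Mf, Unc-89, Strn-Mlck), 6 Z-disc and LIM-domain genes (Zasp52, Zasp66, Zasp67, Actn, Mlp60A, Mlp84B) and Msp300, Mp20, tn and tmod.

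The sarcomere is the repeating unit of striated muscle, in which myosin heads of the thick filament pull on actin of the thin filament. Calcium binding to troponin C shifts tropomyosin along the thin filament and exposes actin to myosin. Flies carry several genes for muscle actin and for troponin C, and each muscle type uses its own combination. Flight muscle uses Act88F and TpnC4, whereas visceral muscle, of which the sheath of the reproductive tract is an example, uses other members. In the female reproductive tract (FRT) such muscle moves eggs, sperm and the ejaculate.

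RNA was sequenced from 64 libraries of females of the wild-type strain LHM, aged 3 to 8 days and carrying no transgene or mutation. Each tissue library pooled one tissue dissected from many females. The females were unmated, 6 h postmating or 24 h postmating. In that order of time, the bursa had 4, 4 and 4 libraries, the oviduct 3, 2 and 3, the seminal receptacle 3, 4 and 3, the spermathecae 4, 4 and 4, the parovaria 4, 3 and 4 and the FRT-associated fat body 4, 3 and 2. The bursa, oviduct and seminal receptacle were grouped as epithelial tissues and the spermathecae and parovaria as glandular tissues. Whole unmated females with the lower FRT removed and the ovaries included gave 2 libraries. The libraries were sequenced in 2 runs, with 26 libraries in run 1 and 38 in run 2, and run 2 alone held all whole female libraries, all oviducts taken at 6 h and all fat bodies taken at 24 h. Total counts lay between 12177864 and 26860149 per library, so counting error was small for all but the least abundant genes.

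The dissected tissues were checked against marker genes. Send1 and Send2, proteases of spermathecal secretory cells, together stood at 49802 to 59963 CPM (read counts relative to the library total, scaled between libraries by the TMM method) in unmated spermathecae, against 120 to 2456 CPM in the other unmated tract tissues. The fat body genes summed to 126525 to 172663 CPM in unmated fat body, against 4084 to 30230 CPM in the tract tissues. Oamb, the octopamine receptor of the oviduct epithelium, was at 130 to 234 CPM in the unmated oviduct, against 11.2 to 107 CPM in the other unmated tract tissues and at most 5.86 CPM in unmated fat body and the whole female. Germline genes summed to at most 53.8 CPM in the unmated tract, against 242 to 438 CPM in the whole female.

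Sarcomere transcripts were most abundant in the epithelial tissues and above all in the bursa. Their summed level in unmated females averaged 39342 ± 9543 CPM in the bursa (SD, n = 4), 22954 ± 2324 CPM in the oviduct (SD, n = 3) and 17741 ± 2519 CPM in the seminal receptacle (SD, n = 3). The glandular tissues were an order of magnitude lower, at 2570 ± 166 CPM in the parovaria and 1775 ± 198 CPM in the spermathecae (SD, n = 4 each). The unmated fat body averaged 444 ± 60.1 CPM (SD, n = 4), and the whole female libraries had 873 and 1086 CPM. As a share of all counts the 33 genes took 5.23% in the unmated bursa and 0.183% in unmated spermathecae, against 0.232% in the whole female. In these bulk samples fewer muscle cells and less RNA per muscle cell cannot be told apart. In unmated females 25 members had their highest mean level in the bursa, 3 in the oviduct (Act87E, TpnC73F and Msp300) and 5 in the whole female (Act79B, Act88F, TpnC4, fln and Zasp67).

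**Figure D1:**
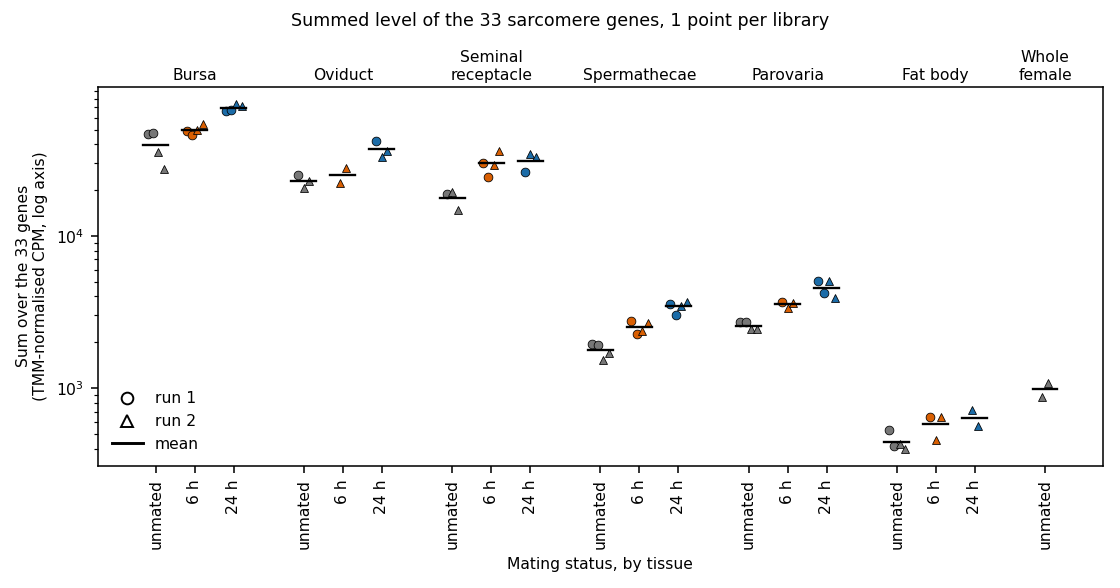
Summed level of the 33 sarcomere genes in each library, in TMM-normalised CPM on a log axis, for each tissue at 0 h (unmated), 6 h and 24 h and for the whole female; circles are run 1, triangles run 2 and lines the group means. The bursa libraries stand highest, and the 24 h means of 69653 CPM in the bursa and 3439 CPM in the spermathecae exceed their unmated means of 39342 and 1775 CPM.

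A comparison of epithelial with glandular tissues asked where in the unmated tract the muscle transcripts lay. edgeR's quasi-likelihood test with a Bonferroni-adjusted p of at most 0.01 called 28 of the 29 members that passed the filter on low counts as higher in epithelial tissues and none as lower, where 28.9% of the 8452 genes tested were called in either direction. The median log2 fold change (log2FC) of the members was 3.56, against 0.06 over all genes. The largest estimate among the members was that of bt. bt, the titin-like projectin, had 256, 252, 283 and 339 CPM in bursa libraries and 159, 266 and 336 CPM in oviduct libraries, against 3.51, 3.16, 4.17 and 8.79 CPM in spermathecae and 5.62, 6.75, 7.79 and 11.4 CPM in parovaria. Every bursa and oviduct library was far above every glandular one, and the log2FC between epithelial and glandular tissues was 4.85 ± 0.25 (SE), an estimate of 28.9-fold (adjusted p = 9.97e-09).

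Mhc, the single muscle myosin heavy chain gene (2L:16766566-16788766, plus strand, BDGP6.54), had 4921, 5145, 3515 and 2800 CPM in the unmated bursa, 1969, 1763 and 1837 CPM in the oviduct and 2038, 1425 and 1435 CPM in the seminal receptacle. It had 170, 152, 153 and 153 CPM in spermathecae and 162, 171, 177 and 163 CPM in parovaria. No epithelial library overlapped a glandular one, and the log2FC was 3.79 ± 0.13 (SE, adjusted p = 1.1e-11). The medians by role ran from 3.04 for the troponin C genes to 4.03 for the thick filament and elastic genes, with actins at 3.99 (3.88 without Act88F), Z-disc genes at 3.55, troponin T and I at 3.50, myosins at 3.31 and tropomyosins at 3.23. Actn, the actin cross-linker of the Z-disc, had the smallest called difference (log2FC 2.18 ± 0.11, SE). Actn shares 20.7% of its exonic bases with CG4313, east and usp, and the part of their reads in its values was not tested.

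Strn-Mlck, a giant protein of the titin and myosin light chain kinase family, was the member that was not called. It had 65.6, 61.8, 78.7 and 78.3 CPM in the unmated bursa and 22.3, 23.1 and 29.4 CPM in the seminal receptacle, against 27.3, 29.8, 35.8 and 34.7 CPM in spermathecae and 46.7, 44.5, 52.2 and 54.7 CPM in parovaria. In the oviduct it had 41.6, 68.3 and 70.8 CPM. All glandular libraries were below those of the bursa. The spermathecae overlapped the seminal receptacle, and the parovaria overlapped the oviduct (epithelial minus glandular log2FC 0.22 ± 0.11, SE, adjusted p = 1.0).

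Other muscle genes were less uniform along the same axis. Of 9 excitation-contraction genes tested, such as the ryanodine receptor and the SERCA calcium pump, 7 were higher in epithelial tissues and none lower, with a median log2FC of 3.72. For muscle attachment genes it was 6 of 12 with none lower (median 0.96), for muscle regulators 3 of 6 with none lower (median 1.08) and for myofibril assembly factors 2 of 5 with none lower (median 0.35). Cytoplasmic actomyosin genes, which every cell uses, had 2 higher and 1 lower of 7 (median 0.04). Hemocyte markers moved with the muscle genes. Of 5 such markers, 4 were called higher in epithelial tissues and 1 lower, their summed level was 233 to 1239 CPM in unmated epithelial tissues and 98.7 to 154 CPM in glandular ones, and none was at 0. Of 4 neuronal markers tested 1 was lower and none was called higher (median 1.81). The part of these cells in the muscle result was not tested.

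Within the epithelial tissues most members were estimated higher in the bursa than in the oviduct and the seminal receptacle. Few of them passed the Bonferroni threshold. Against the oviduct, 4 of 29 members were called higher in the bursa and none lower, where 6.09% of genes were called, and the median log2FC was 0.68 (all genes −0.05). The 4 were TpnC41C, TpnC25D, the muscle LIM protein gene Mlp84B and tn, which encodes a TRIM protein needed to keep muscle intact. Mlp84B had 2018, 1799, 1926 and 1369 CPM in the bursa, against 472, 414 and 509 CPM in the oviduct (log2FC 1.96 ± 0.18, SE, adjusted p = 4.58e-05). tn had 586, 558, 512 and 355 CPM in the bursa, against 139, 150 and 185 CPM in the oviduct (log2FC 1.69 ± 0.15, SE, adjusted p = 2.25e-05). For both genes the bursa and oviduct libraries were fully separated.

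Against the seminal receptacle, 5 of 29 members were called higher in the bursa and none lower, where 8.25% of genes were called, and all 29 estimates were positive with a median of 1.02 (all genes 0.01). The 5 were TpnC41C, Tm1, Strn-Mlck, Mlc2 and Mlc1. Tm1 had 2365, 2242, 2472 and 1765 CPM in the bursa, against 626, 934 and 623 CPM in the seminal receptacle (log2FC 1.62 ± 0.16, SE, adjusted p = 0.000166), with no overlap. The light chain genes Mlc2 and Mlc1 differed by log2FC 1.48 and 1.24. Between the oviduct and the seminal receptacle 1 member was called, where 6.37% of genes were, and it was TpnC25D, which was lower in the oviduct. The median was 0.47, against 0.06 over all genes. Using run 2 libraries alone left 0 members called in each of these 3 comparisons, and leaving out 1 library gave 2 to 6, 1 to 7 and 0 to 2 calls.

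Spermathecae and parovaria differed in no member by the same test, where 6.53% of genes were called. At an unadjusted p under 0.05, 1 member was higher and 16 were lower in spermathecae, and DESeq2 called 1 lower and 0 higher. The share of all genes passing either of these rules is not given here. The median was −0.53, against 0.03 over all genes. With a Benjamini-Hochberg adjusted p of at most 0.05, 14 members were lower in spermathecae, where 17.4% of all genes were, and 1 was higher. Among the 14 were the nesprin Msp300 (log2FC −1.50), the filament cap tropomodulin encoded by tmod (−1.34) and Act87E (−1.26), and the 1 that was higher was Actn (0.73). The exon overlap of Actn with other genes, given above, limits this value too.

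Levels can be compared between genes only per length, and so counts were also divided by the exonic length of each gene. Per kilobase, the same 3 genes led in all 5 unmated tract tissues and in the fat body, namely Mp20, a calponin-family actin-binding protein, Act57B and Mlc2, the regulatory light chain. In the unmated bursa they averaged 4028, 3512 and 2122 CPM per kb, followed by wupA at 888 and Mlc1 at 852 CPM per kb. In the unmated oviduct Act57B led at 2706 CPM per kb, ahead of Mp20 at 1751 and Mlc2 at 937 CPM per kb. Whole females differed in that Mlc2 at 32.9, Mp20 at 32.8 and the thick filament protein gene Mf at 31.9 CPM per kb lay close together, with Act57B at 28.1 CPM per kb. At 6 h Mp20 in the bursa averaged 8719 CPM per kb, above Act57B at 3581 and Mlc2 at 3130, and at 24 h Mp20 and Act57B were close at 7518 and 7060 CPM per kb.

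**Figure D2:**
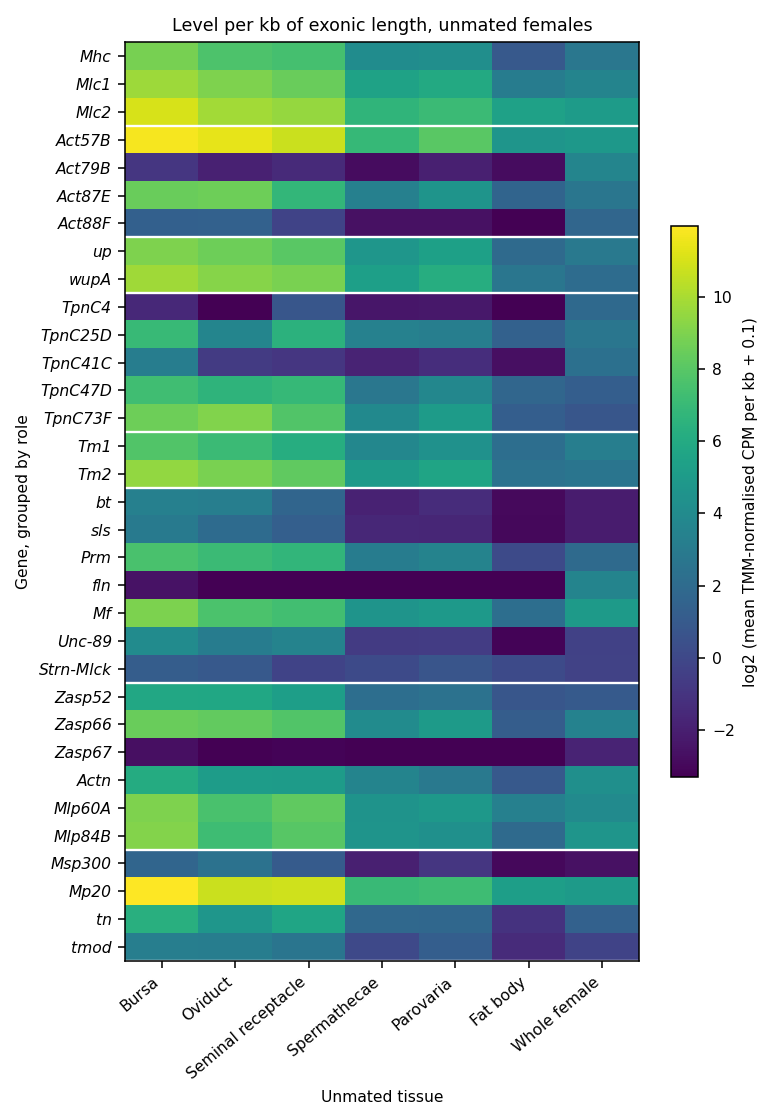
Mean level of each of the 33 genes in the 7 unmated groups, as log2 of TMM-normalised CPM per kilobase of exon plus 0.1, with white lines between functional roles. Mp20, Act57B and Mlc2 are bright across the tract tissues, whereas Act79B, TpnC4, fln and Zasp67 reach their highest level in the whole female.

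The muscle actin genes were used differently in the tract and in the rest of the body. Within each library the share of each gene was taken in the length-scaled sum of Act57B, Act79B, Act87E and Act88F. Act57B was the largest member everywhere, with a mean of 90.6% in the unmated bursa (range 90.2 to 91.0%, n = 4), 87.5% for oviduct, 93.8% for seminal receptacle, 92.2% for spermathecae and 91.9% for parovaria, but 52.9 and 59.5% in the whole female libraries. Act79B, an actin of tubular muscles in the thorax (3L:21985210-21987190, plus strand), made up 20 and 30.2% in the whole female. It had 16.9 and 23.1 CPM there and at most 1.46 CPM in any tract or fat body library. Act88F, the flight muscle actin (3R:15439969-15442177, plus strand), had 4.33 and 8.57% of the sum in the whole female, with 3.60 and 6.47 CPM. The 2 whole female libraries also differed from each other, with Act87E at 16.3 and 8.31% of the sum.

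In the tract the counts of Act88F followed those of Act87E. They were between 0.294 and 0.634% of the Act87E counts in all 30 bursa, oviduct and seminal receptacle libraries (median 0.499%), and 21.3 and 82.7% in the whole female. The actin genes are nearly identical in their coding sequence and the reads were 50 bases long, so the assignment of the few Act88F counts in the tract is uncertain. The same limit applies to the split of reads among the other actin genes, Act87E included, and its size was not tested.

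The troponin C genes, which encode the calcium sensor of the thin filament, also differed in their make-up between tissues. TpnC73F (3L:17046063-17048390, plus strand) was the largest member in all 5 unmated tract tissues. It had a mean of 83.0% of the length-scaled family in the oviduct (range 81.1 to 84.2%, n = 3), 59.4% in parovaria, 55.1% in the bursa (range 43.0 to 69.6%, n = 4), 52.2% in the seminal receptacle and 47.1% in spermathecae. The ranges of the oviduct and the bursa did not overlap. In fat body TpnC47D led with a mean of 40.7% (range 34.1 to 47.8%, n = 4). In the whole female the largest was TpnC25D with 32.3 and 34.6%, followed by TpnC41C with 20.4 and 29.8% and the flight muscle gene TpnC4 with 15.9 and 21.3%, whereas TpnC73F made up 4.29 and 16.1%.

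TpnC25D (2L:5216701-5219053, plus strand) set the oviduct apart. It had 178, 161, 172 and 114 CPM in the unmated bursa and 85.9, 166 and 93.1 CPM in the seminal receptacle, but 23.5, 5.88 and 17.7 CPM in the oviduct. The oviduct libraries were all below those of the other epithelial tissues, and the log2FC was 3.34 ± 0.37 for the bursa minus the oviduct (SE, adjusted p = 0.00085, 10.1-fold) and −2.88 ± 0.38 for the oviduct minus the seminal receptacle (SE, adjusted p = 0.00673). TpnC41C set the bursa apart at a lower level, with 18.3, 18.7, 17.0 and 11.9 CPM there, against 1.57, 0.295 and 1.18 CPM in the oviduct and 1.10, 0.752 and 0.650 CPM in the seminal receptacle. No bursa library overlapped either tissue, and the log2FC was 4.04 ± 0.45 against the oviduct (SE, adjusted p = 0.000925, 16.4-fold) and 4.30 ± 0.46 against the seminal receptacle (SE, adjusted p = 0.000502, 19.8-fold). TpnC4 was at 0, 0 and 0 CPM in the unmated oviduct and at 0.392, 0.196, 0 and 0.207 CPM in the bursa, but at 1.61, 1.31 and 1.19 CPM in the seminal receptacle, against 1.85 and 4.31 CPM in the whole female. It did not pass the filter on low counts in the comparisons between unmated tract tissues, and after mating it was tested only in the seminal receptacle, where it was not called (log2FC −0.26 at 6 h and 0.32 at 24 h).

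**Figure D3:**
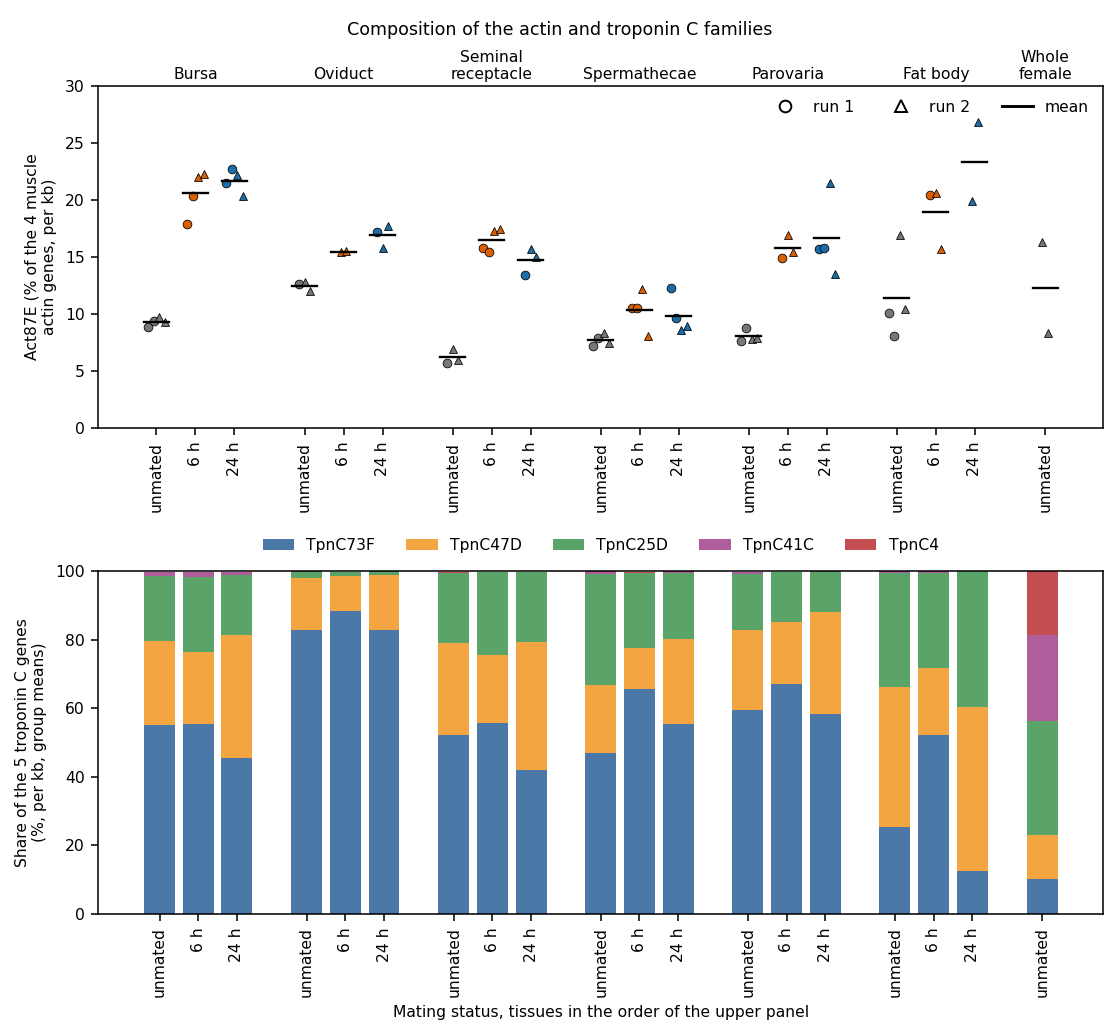
Upper panel, percent of the length-scaled counts of 4 muscle actin genes that came from Act87E, 1 point per library by tissue and time; lower panel, mean percent of the length-scaled counts of 5 troponin C genes by group. In the bursa the Act87E share is 8.88 to 9.70% in unmated libraries and 20.3 to 22.7% at 24 h, and TpnC73F fills most of the oviduct bar with a mean of 83.0% in unmated females.

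Each tissue was also set against the whole female without its lower FRT, with a Bonferroni-adjusted p of at most 0.001 and a log2FC of at least 2 in size. In this comparison the bursa had 3 of 32 members called, where 2.34% of genes were called, and all 3 were higher in the bursa. bt had the bursa values given above, against 3.30 and 3.69 CPM in the whole female (log2FC 6.44 ± 0.30, SE, adjusted p = 0.00041). sls, the elastic link of the thick filament to the Z-disc, had 420, 407, 435 and 551 CPM in the bursa, against 8.22 and 6.66 CPM in the whole female (log2FC 6.04 ± 0.30, SE, adjusted p = 0.000633). TpnC47D had 132, 99.3, 154 and 110 CPM in the bursa, against 1.65 and 1.89 CPM in the whole female (log2FC 6.23 ± 0.32, SE, adjusted p = 0.000874). For all 3 the libraries of the 2 groups were far apart. The 3 calls rest on 2 whole female libraries, and leaving out any 1 bursa library left 0.

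No member was called in the other tissues by edgeR's quasi-likelihood test, where the share of genes called was 0% for oviduct, 0.201% for seminal receptacle, 1.10% for spermathecae, 1.69% for parovaria and 3.86% for fat body. At an unadjusted p under 0.05 the members that were higher and lower numbered 26 and 4 for oviduct, 26 and 4 for seminal receptacle, 18 and 6 for spermathecae, 22 and 6 for parovaria and 3 and 17 for fat body. DESeq2 called 24 higher and 3 lower for oviduct, 25 and 3 for seminal receptacle, 6 and 3 for spermathecae, 11 and 3 for parovaria and 0 and 8 for fat body. For the unadjusted p and for DESeq2 the share of all genes is not given here, so these counts do not set members against other genes. The median log2FC of the members was 5.12 for bursa, 4.84 for oviduct, 4.34 for seminal receptacle, 0.81 for spermathecae, 1.48 for parovaria and −1.06 for fat body, against all-gene medians between −0.53 and −0.09. TMM factors ranged from 0.3399 in a fat body library to 2.703 in a whole female library, so these levels lean on the scaling.

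A small set ran the other way. fln, the flightin of flight muscle thick filaments, had 9.11 and 21.3 CPM in the whole female and was at 0 in 58 of the 62 tract and fat body libraries, with at most 0.364 CPM in any of them. Zasp67 had 0.454 and 0.792 CPM in the whole female and was at 0 in 54 of the 62. fln shares 61.6% of its exonic bases with an antisense RNA on the opposite strand, and whether counting used the strand was not given in the sources used here. Act79B stood at 0.644, 0.757, 0.459 and 0.917 CPM in the unmated bursa, all below the whole female libraries (bursa minus whole female log2FC −4.73 ± 0.32, SE), but its adjusted p of 0.00591 missed the threshold.

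The mean summed sarcomere level was higher at 6 h and at 24 h postmating than in unmated females in every tissue, a sum for which no test was made, and few single genes passed the threshold. The oviduct at 6 h depends on the scaling. The members took 2.92 and 3.48% of counts in its libraries, both from run 2. Unmated oviduct libraries had 3.18 and 3.26% in run 2 and 4.08% in run 1. In the oviduct at 6 h the members had a median log2FC of −0.01, with 13 of 28 positive. In run 2 the bursa at 6 h depends on the scaling as well. The members took 3.44 and 4.08% of counts there, against 4.17 and 3.85% in unmated libraries. In run 1 the bursa sums were 49177 and 46229 CPM at 6 h, against 46537 and 47535 CPM in unmated libraries. The members in the bursa at 6 h had a median log2FC of 0.01, with 15 of 29 positive. In the bursa the sum averaged 39342 ± 9543 CPM in unmated females, 49915 ± 3587 CPM at 6 h and 69653 ± 3550 CPM at 24 h (SD, n = 4 each). It averaged 22954 ± 2324, 25104 ± 4199 and 37108 ± 4790 CPM in the oviduct and 17741 ± 2519, 29949 ± 4801 and 31314 ± 4387 CPM in the seminal receptacle over the same times. In spermathecae it averaged 1775 ± 198, 2522 ± 233 and 3439 ± 273 CPM and in parovaria 2570 ± 166, 3551 ± 183 and 4576 ± 585 CPM. The fat body had the lowest sums, at 444 ± 60.1, 584 ± 113 and 638 ± 109 CPM. The comparisons of 6 h and of 24 h with unmated females share the unmated libraries and are not independent. The p-values measure the spread between pools of females.

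At 24 h most members pointed up. In the 5 tract tissues 27 members were tested in each, and 20 of them had a positive log2FC in all 5 tissues, with none negative in all 5. Over all 6930 genes tested in the 5 tissues 14.7% were positive in all of them. The count of 20 leans in part on oviduct library 1 at 24 h. All 28 members tested in the oviduct were positive with that library and 21 without it. The count over the 5 tissues was not repeated without it. The median log2FC of the members at 24 h was 0.65 for bursa, 0.64 for oviduct, 0.82 for seminal receptacle, 0.89 for spermathecae and 0.61 for parovaria, against all-gene medians between −0.04 and 0.06. At 6 h 8 of the 27 were positive in all 5 tissues and 1 (Zasp52) was negative in all 5, where 22.2% of all genes were positive in all of them. The 8 were Act87E, Mlc1, Mlc2, Mp20, Tm1, TpnC73F, Mlp84B and Mlp60A.

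At 24 h the actin and troponin C genes had the largest medians by role in the bursa, seminal receptacle, spermathecae and parovaria. In the bursa the median was 2.22 for actins, 1.71 for Act57B and Act87E without the uncertain Act88F, and 1.10 for troponin C genes, against 0.75 for myosins, 0.76 for tropomyosins, 0.64 for troponin T and I, 0.50 for Z-disc genes and −0.04 for thick filament and elastic genes. In spermathecae it was 1.92 for actins and 1.92 for troponin C genes, with all other roles between 0.74 and 1.08. In the seminal receptacle it was 2.19 for actins (1.65 without Act88F) and 1.25 for troponin C genes, and in parovaria 1.75 and 1.51. In the oviduct the median of 1.12 for Act57B and Act87E was followed by 0.85 for troponin T and I and 0.83 for troponin C genes. In fat body the 5 Z-disc genes had a median of 0.86, against 0.48 for actins. Members that stayed near or below 0 in several tissues at 24 h were Zasp52 (between −0.26 and 0.28), Strn-Mlck (between −0.47 and 0.18), tn (between −0.43 and 0.26) and Mf (between −0.12 and 0.36).

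**Figure D4:**
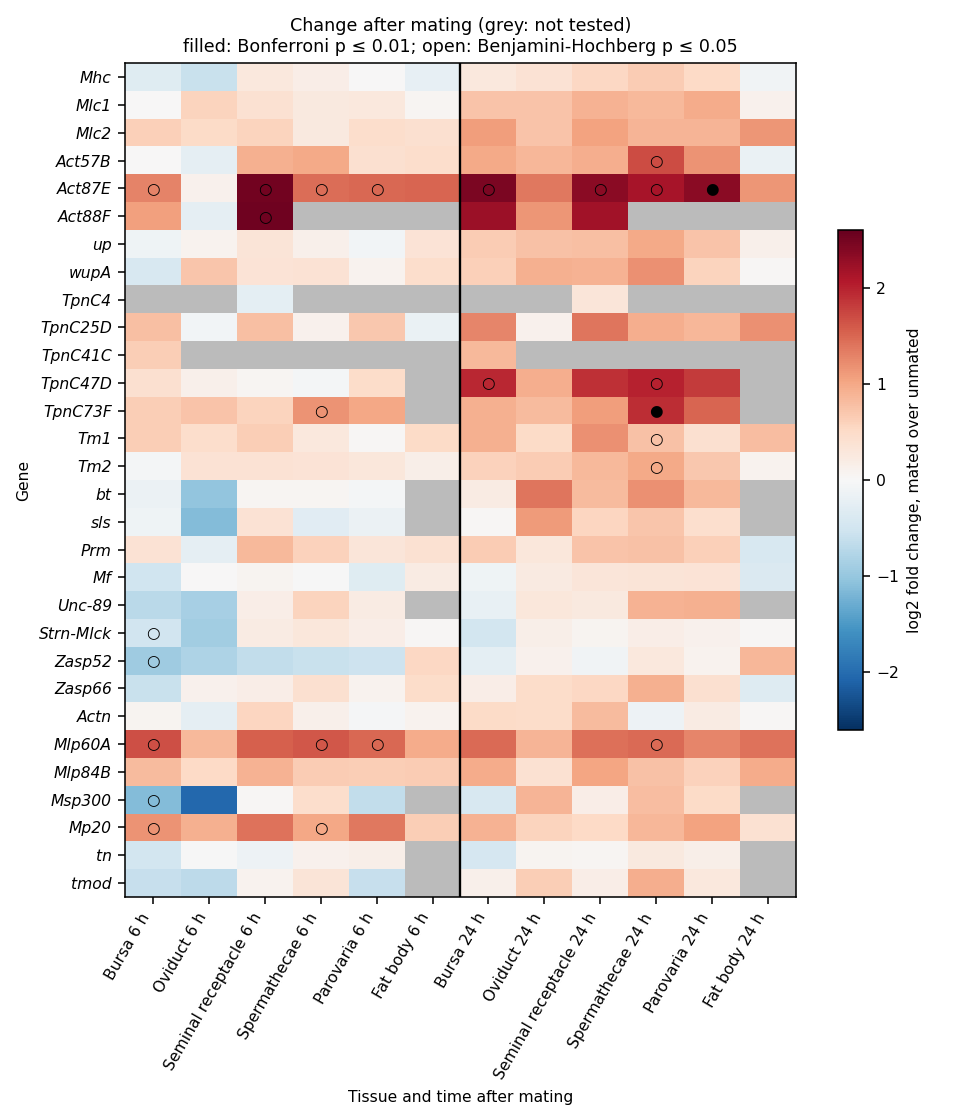
log2 fold change of the 30 sarcomere genes tested in at least one tissue, at 6 h (left) and 24 h (right) against unmated females, by tissue and ordered by role; grey cells were not tested, filled circles mark a Bonferroni-adjusted p of at most 0.01 and open circles a Benjamini-Hochberg adjusted p of at most 0.05. The row of Act87E carries 8 marked cells, and filled circles appear only for TpnC73F in spermathecae and Act87E in parovaria at 24 h.

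By edgeR's quasi-likelihood test with a Bonferroni-adjusted p of at most 0.01, 1 of 27 members was called in spermathecae at 24 h, where 0.0656% of genes were called. It was TpnC73F, which rose. It had 18.7, 14.1, 15.0 and 16.0 CPM in unmated libraries, 44.2, 33.6, 28.9 and 37.4 CPM at 6 h and 67.3, 51.3, 58.0 and 61.8 CPM at 24 h. All libraries at 24 h were above all at 6 h, and these above all unmated ones. The log2FC was 1.92 ± 0.17 at 24 h (SE, adjusted p = 0.000691, 3.78-fold) and 1.17 ± 0.17 at 6 h (SE, adjusted p = 0.111). The call at 24 h held without any 1 library, with adjusted p between 0.000501 and 0.00952, and was lost with run 2 alone (adjusted p = 0.106) and in 1 fit of all libraries (adjusted p = 0.0177).

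In parovaria at 24 h 1 of 27 members was called, where 0.0137% of genes were called. It was Act87E (3R:13425983-13428375, plus strand), which rose and was the only called gene of the 7277 tested. It had 52.5, 62.6, 36.7 and 36.2 CPM in unmated libraries, 161, 135 and 121 CPM at 6 h and 291, 234, 279 and 146 CPM at 24 h. Both postmating groups were fully above the unmated one (24 h log2FC 2.34 ± 0.25, SE, adjusted p = 0.00777, 5.08-fold). This call was close to the threshold. The adjusted p lay between 0.00317 and 0.0635 when 1 library was left out, and the call was kept only without library 4 at 24 h. It was 0.891 with run 2 alone, where the log2 difference was 2.45, against 2.18 in run 1.

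The estimate for Act87E was positive in every tissue at both times. In the bursa it had 900, 1076, 502 and 381 CPM in unmated libraries, 2726, 2437, 905 and 927 CPM at 6 h and 4690, 4957, 2514 and 3426 CPM at 24 h, with libraries 1 and 2 of each group from run 1. The 24 h libraries were all above the unmated ones, and within each run so were the 6 h libraries. The log2FC was 1.28 ± 0.42 at 6 h and 2.44 ± 0.43 at 24 h (SE, adjusted p = 0.898, by Benjamini-Hochberg 0.0207), and within runs 1 and 2 the 24 h difference was 2.29 and 2.75. With the run as a covariate in edgeR the Bonferroni-adjusted p at 24 h was 0.000158, and with run 2 alone it was 0.101. In the seminal receptacle the estimate at 6 h was close to that at 24 h. Act87E had 291, 224 and 167 CPM there in unmated libraries, 1785, 1334, 974 and 1105 CPM at 6 h and 1130, 1046 and 1179 CPM at 24 h (6 h log2FC 2.51 ± 0.29, SE, adjusted p = 0.0434; 24 h log2FC 2.35 ± 0.30, SE, adjusted p = 0.0995). No mated library of the seminal receptacle overlapped an unmated one.

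In spermathecae Act87E had 26.2, 27, 13.9 and 12.8 CPM in unmated libraries, 80.0, 59.0, 44.5 and 35.7 CPM at 6 h and 142, 84.4, 54.8 and 70.3 CPM at 24 h. The mated libraries were all above the unmated ones (24 h log2FC 2.15 ± 0.34, SE, adjusted p = 0.266). In the oviduct it had 996, 668 and 640 CPM in unmated libraries, 731 and 873 CPM at 6 h and 2785, 1547 and 1677 CPM at 24 h, so that the groups overlapped at 6 h and were apart at 24 h (24 h log2FC 1.38 ± 0.28, SE, by Benjamini-Hochberg 0.278). By Benjamini-Hochberg at 0.05 Act87E was higher in 8 of its 12 comparisons.

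The actin make-up also differed by time within libraries, a measure that does not depend on scaling but does rest on the assignment of reads among the actin genes. In the bursa Act87E made up 17.9 to 22.3% of the muscle actin sum at 6 h and 20.3 to 22.7% at 24 h, against 8.88 to 9.70% in unmated libraries. In the seminal receptacle it made up 15.4 to 17.4% at 6 h and 13.4 to 15.7% at 24 h, against 5.72 to 6.92% in unmated libraries. In parovaria it was 14.9 to 16.9% at 6 h and 13.5 to 21.5% at 24 h, against 7.60 to 8.80%. The oviduct moved least among the epithelial tissues, with 15.4 to 15.5% at 6 h and 15.8 to 17.7% at 24 h, against 12 to 12.8%. In spermathecae the share at 6 h (8.03 to 12.2%) overlapped that of unmated libraries (7.18 to 8.32%), whereas the share at 24 h (8.63 to 12.3%) did not. Act57B was higher in spermathecae by log2FC 1.70 ± 0.30 at 24 h (SE, by Benjamini-Hochberg 0.0248).

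**Figure D5:**
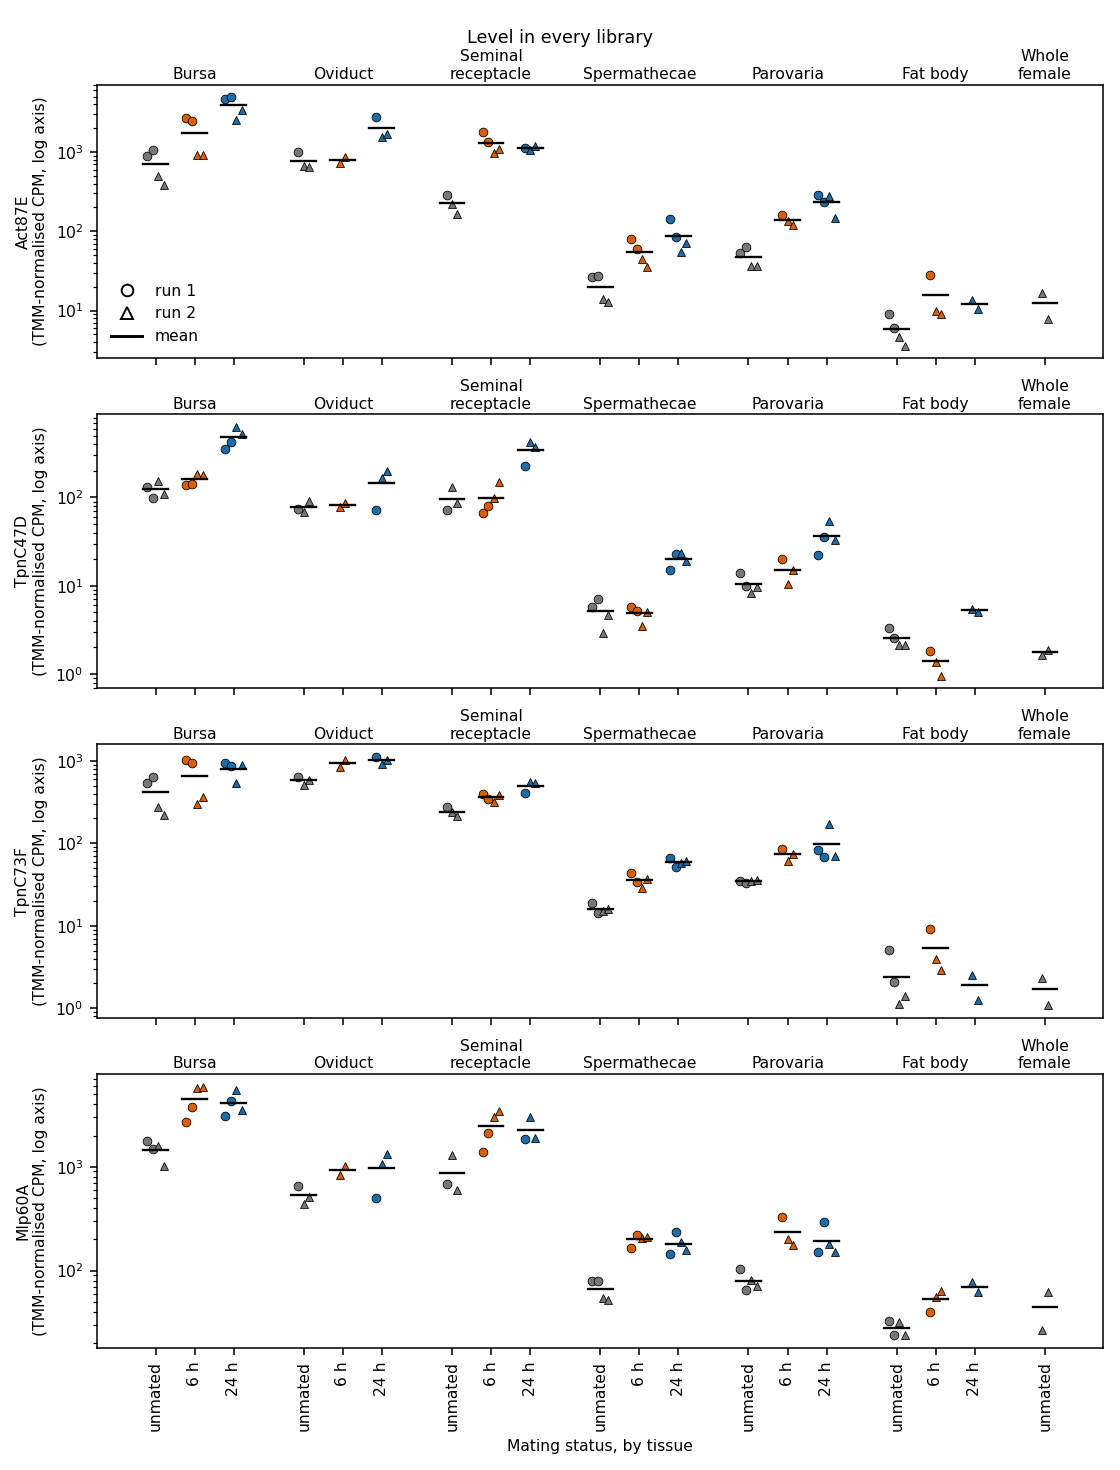
Level of Act87E, TpnC47D, TpnC73F and Mlp60A in each library of each tissue at 0 h (unmated), 6 h and 24 h and in the whole female, in TMM-normalised CPM on a log axis. In the bursa Act87E lies between 381 and 1076 CPM in unmated libraries and between 2514 and 4957 CPM at 24 h, and TpnC47D lies between 359 and 632 CPM at 24 h and between 140 and 186 CPM at 6 h.

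TpnC47D stood apart from the unmated libraries at 24 h and not at 6 h in the bursa, seminal receptacle, spermathecae and parovaria. In the bursa it had 132, 99.3, 154 and 110 CPM in unmated libraries, 140, 141, 186 and 178 CPM at 6 h and 359, 430, 632 and 531 CPM at 24 h. The 24 h libraries were all above the rest, whereas those at 6 h overlapped the unmated ones (24 h log2FC 1.97 ± 0.24, SE, adjusted p = 0.0195, by Benjamini-Hochberg 0.00102; 6 h log2FC 0.41). In spermathecae it had 5.81, 7.05, 2.92 and 4.66 CPM in unmated libraries, 5.80, 5.16, 3.53 and 5.05 CPM at 6 h and 15.1, 22.6, 23.3 and 19.3 CPM at 24 h (24 h log2FC 2.00 ± 0.25, SE, adjusted p = 0.0273, by Benjamini-Hochberg 0.00428). In the seminal receptacle it had 72.8, 130 and 85.7 CPM in unmated libraries, 67.0, 80.6, 99.6 and 150 CPM at 6 h and 230, 428 and 373 CPM at 24 h (24 h log2FC 1.89, by Benjamini-Hochberg 0.293). The 6 h groups overlapped the unmated ones in all of these tissues. The oviduct differed in that its 24 h libraries, at 72.7, 167 and 198 CPM, overlapped the unmated ones at 74.4, 69.2 and 91.4 CPM, with a 24 h difference of −0.03 in run 1 and 1.19 in run 2. Its share of the troponin C family in the seminal receptacle was 34.9 to 39.2% at 24 h, against 21.9 to 31.2% in unmated libraries.

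In the bursa no member was called at 6 h, where 1.15% of genes were called, or at 24 h, where 0.125% were. At an unadjusted p under 0.05 6 members were higher and 5 lower at 6 h, and 16 were higher and 2 lower at 24 h, and DESeq2 called 1 higher at 6 h and 2 higher at 24 h. These counts do not set members against other genes, since the share of all genes passing either rule is not given here. Every mated library was above every unmated one for 3 of 29 members at 6 h (13.3% of all genes) and for 14 of 29 at 24 h (3.68% of all genes), and below every unmated one for 3 at 6 h (11.5% of all genes) and 0 at 24 h. With Benjamini-Hochberg at 0.05, 3 members were higher and 3 lower at 6 h, where 13.9% of genes were higher and 11.5% lower, and 2 were higher at 24 h, where 0.676% of genes were.

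The members that were higher in the bursa at 6 h by Benjamini-Hochberg were Mlp60A, Mp20 and Act87E. Mlp60A, a small LIM protein of the Z-disc, had 2696, 3761, 5799 and 5916 CPM at 6 h, against 1789, 1472, 1569 and 1025 CPM in unmated libraries. Mp20 had 5708, 7366, 9550 and 10438 CPM at 6 h, against 4235, 3932, 4265 and 2841 CPM in unmated libraries. Neither overlapped (log2FC 1.68 ± 0.33 and 1.16 ± 0.26, SE, by Benjamini-Hochberg 0.00307 and 0.00708), and in both the difference was larger in run 2 (2.21 and 1.52) than in run 1 (0.97 and 0.67). The members that were lower were Msp300, Zasp52 and Strn-Mlck, which code for structural proteins of the sarcomere and its anchors. Msp300 had 108, 104, 74.2 and 115 CPM at 6 h, against 210, 182, 158 and 328 CPM in unmated libraries, without overlap (log2FC −1.12 ± 0.32, SE, by Benjamini-Hochberg 0.025). Zasp52 had 401, 343, 256 and 297 CPM at 6 h, against 795, 823, 435 and 433 CPM in unmated libraries, without overlap (log2FC −0.93 ± 0.23, SE, by Benjamini-Hochberg 0.0138). Strn-Mlck was lower by less (log2FC −0.50 ± 0.16, SE, by Benjamini-Hochberg 0.0418).

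Act57B and Mlc2, the other members of highest level per length in the bursa, were not called. Act57B had 7994, 8974, 4046 and 3205 CPM in unmated libraries, 10852, 8269, 2774 and 2799 CPM at 6 h and 14804, 14627, 7614 and 11640 CPM at 24 h. Mlc2 had 5282, 4780, 5386 and 3958 CPM in unmated libraries, 4372, 4701, 8881 and 10665 CPM at 6 h and 7063, 8279, 15871 and 10141 CPM at 24 h. Run 1 libraries were high for Act57B and low for Mlc2 at each mated time, so the run moved with the level and its part was not tested. Mp20 at 24 h had 6133, 6969, 8295 and 7110 CPM.

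Gene length moved with the 6 h changes in the bursa, oviduct and parovaria. In the bursa the median log2FC at 6 h of all genes under 2 kb of exon was 0.30, and it was −0.42 for those over 20 kb. The medians were 0.19 and −0.32 in parovaria, but 0.15 and 0.18 in the seminal receptacle, 0.10 and 0.17 in spermathecae and −0.07 and 0.20 in fat body. In the oviduct these medians were 0.31 and −0.90, and the 4 members over 20 kb had a median of −1.08 there. For example, Msp300 in the oviduct had 74.9 and 94.6 CPM at 6 h, against 151, 456 and 497 CPM in unmated libraries (log2FC −2.05 ± 1.07, SE, by Benjamini-Hochberg 0.285). At 24 h oviduct library 1 had 1762 CPM of Msp300, 1594 CPM of bt and 1253 CPM of sls, against 157 and 187, 198 and 259, and 169 and 143 CPM in libraries 2 and 3. Without that library the median log2FC of the members in the oviduct at 24 h was 0.50, with 21 of 28 positive. In spermathecae at 24 h the median of all genes was 0.02 under 2 kb and 0.82 over 20 kb, and the 4 members over 20 kb had 0.76. The part of length in the changes of the members was not tested.

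In the other tissues the calls at 6 h and 24 h were few. By edgeR's quasi-likelihood test 0 of 28 members were called in the oviduct at 6 h (0.0256% of genes) and at 24 h (0%), 0 of 29 in the seminal receptacle at 6 h (0.0246%) and 24 h (0%), 0 of 27 in spermathecae at 6 h (0.289%), 0 of 27 in parovaria at 6 h (0.0687%) and 0 of 19 in fat body at 6 h (0.0176%) and 24 h (0%). At an unadjusted p under 0.05, 2 members were higher in the oviduct at 6 h and 13 at 24 h, 9 and 14 in the seminal receptacle and 4 and 7 in fat body, with none lower in these tissues. In spermathecae 9 were higher and 1 lower at 6 h, and 18 higher and 0 lower at 24 h. In parovaria 7 were higher and 1 lower at 6 h, and 15 higher and 0 lower at 24 h. DESeq2 called 2 higher in the seminal receptacle at 6 h and 3 at 24 h, 2 in spermathecae at 6 h and 7 at 24 h, 2 in parovaria at 6 h and 5 at 24 h, and 0 in the oviduct and the fat body. Here too the share of all genes at the unadjusted p or by DESeq2 is not given.

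With Benjamini-Hochberg at 0.05 the members higher numbered 7 in spermathecae at 24 h (0.315% of genes), 4 in spermathecae at 6 h (1.25%), 2 in parovaria at 6 h (0.44%), 1 in parovaria at 24 h (0.0137%), 2 in the seminal receptacle at 6 h (0.626%) and 1 there at 24 h (0.0491%), and 0 in the oviduct at 6 h (1.83%) and 24 h (0.154%). No member was lower in these. The oviduct counts depended on the libraries used. With run 2 libraries alone 13 members passed there at 6 h and 17 at 24 h, in either direction. Without oviduct library 1 at 24 h, 12 passed at 24 h. The share of all genes under these settings is not given here. The 7 in spermathecae were Act57B, Act87E, TpnC47D, TpnC73F, Tm1, Tm2 and Mlp60A, and the 4 at 6 h were Act87E, TpnC73F, Mlp60A and Mp20. Those in parovaria at 6 h were Act87E and Mlp60A, and those in the seminal receptacle at 6 h were Act87E and Act88F, with Act87E alone at 24 h in both tissues and Act87E and TpnC47D at 24 h in the bursa. Mlp60A in spermathecae had 166, 221, 206 and 210 CPM at 6 h, against 78.7, 79.6, 54.6 and 51.5 CPM in unmated libraries, without overlap (log2FC 1.62 ± 0.21, SE, adjusted p = 0.0269, by Benjamini-Hochberg 0.000768). It was the member with the second most such calls, in 4 of 12 comparisons.

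Counts of members whose mated libraries were all above the unmated ones were mostly larger at 24 h than at 6 h. At 24 h they numbered 16 of 29 in the seminal receptacle (3.33% of all genes), 14 of 27 in spermathecae (1.92%), 14 of 27 in parovaria (1.87%) and 10 of 28 in the oviduct (5%). At 6 h they numbered 8 in the seminal receptacle (7.98%), 7 in spermathecae (4.84%), 10 in parovaria (14.1%) and 9 in the oviduct (27.9%), where 2 mated were set against 3 unmated libraries. Those with all mated libraries below the unmated ones at 6 h numbered 10 in the oviduct (35% of all genes), 1 in parovaria (10.1%), 1 in spermathecae (5.75%) and 0 in the seminal receptacle, and there were 0 in these tissues at 24 h.

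Whether the 6 h change differed between the bursa and another tract tissue was tested as an interaction. No member was called, where 0.0232% of genes were for the oviduct, 0.463% for the parovaria, 0.104% for the seminal receptacle and 1.2% for the spermathecae. By edgeR's unadjusted p under 0.05, 2, 2, 5 and 5 members had a lower change in the bursa in these 4 comparisons and 0 a higher one, and DESeq2 was not run on this contrast. They were tn and wupA for the oviduct, tn and Strn-Mlck for the parovaria, Act87E, Zasp66, Msp300, Mhc and Strn-Mlck for the seminal receptacle, and Zasp66, Unc-89, Msp300, Strn-Mlck and tn for the spermathecae. The share of all genes at this unadjusted p is not given here. With Benjamini-Hochberg at 0.05 tn had a lower change in the bursa than in parovaria (difference −0.68, adjusted p = 0.0477), and Msp300 and Strn-Mlck than in spermathecae (differences −1.59 and −0.80, adjusted p = 0.0365 and 0.0419). The larger Act87E change in the seminal receptacle (difference −1.25 for the bursa) was not called.

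The other muscle genes and the markers of other cell types were measured in the same comparisons. No gene of the excitation-contraction, attachment, regulator, assembly or cytoplasmic actomyosin lists was called after mating in any tissue by the Bonferroni threshold. By Benjamini-Hochberg in the bursa at 6 h, 5 of the 7 cytoplasmic actomyosin genes were higher with a median log2FC of 0.98 and none lower, and 2 excitation-contraction genes were lower with none higher (median −0.77). At 24 h the hemocyte markers had median log2FCs of −0.27 (bursa), 0.18 (oviduct), −0.05 (seminal receptacle), 0.35 (spermathecae) and −0.09 (parovaria). The epithelial markers had medians of −0.19, 0.16, −0.33, 0.38 and −0.13 in the same tissues, and no marker of either list was called at 24 h. The secretory cell genes Send1 and Send2 together had 11926 to 25475 CPM in spermathecae at 24 h, against 49802 to 59963 CPM in unmated spermathecae, without overlap, and neither passed the Bonferroni or the Benjamini-Hochberg threshold there. Their sum was 233 to 689 CPM in parovaria at 24 h, against 1053 to 1796 CPM in unmated parovaria. The sarcomere sum was higher in both of these tissues at 24 h, and the part of the secretory transcripts in that difference was not tested.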

How the data were processed

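The deposited table held raw counts per gene for 64 libraries (50-base single-end reads, BGIseq-500). The authors mapped trimmed reads to FlyBase r6.21 with HISAT2 2.1.0 and counted them with StringTie. Its name says CPM, yet all values were whole numbers and library totals differed, and they were analysed as counts. 14 columns could be assigned to a group but not to one sample, and 0 per-sample columns were left unused. Of the identifiers 17624 were found in the BDGP6.54 annotation, which gave symbols, coordinates and exonic lengths. Unc-89 was found under the symbol Obsc.

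edgeR 4.0.16 in R 4.3.3 fitted quasi-likelihood models with TMM factors and no covariate, 1 per tissue for mating, 1 over unmated tract tissues and 1 per tissue with the whole female. Genes entered if at least 2 libraries in 1 group exceeded 2 CPM, and p-values were adjusted over all genes tested. Printed levels are CPM with TMM factors over all libraries, summarised with Python 3.11.15. Within-run differences are of mean log2(CPM + 0.5). The alternatives were DESeq2 1.42.0, Benjamini-Hochberg adjustment, the run as a covariate, run 2 alone, the replicate block, no filter, 1 fit of all libraries, removal of mitochondrial or the 10 most abundant transcripts, and leaving out each library. The fits were tested on simulated data.

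All 33 genes were accounted for. Values by library were set to be given for actin and troponin C genes, the 3 highest per length in the bursa and the 2 largest called changes per tissue and time. Other named genes, including those called only by Benjamini-Hochberg, were chosen after their values were seen. The members and lists were chosen with earlier results of these data known.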

Additional observations from a re-analysis of the deposited data

Results flagged for a closer look

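In 138 combinations of a member's level or sum with a group of 4 libraries, 4 had a library far from the other 3 (a gap of over 0.829 of the group's range), where chance gives about 1 in 20. Mp20 was 108 CPM in unmated parovaria library 2, below the other 3 at 154 to 157 CPM. TpnC41C was 0.407 CPM in unmated fat body library 2 and at 0 in the other 3. TpnC73F was 171 CPM in parovaria library 3 at 24 h, above the next library at 83.1 CPM. sls was 28.8 CPM in parovaria library 1 at 24 h, above the next at 13.9 CPM.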

How the results depend on the processing

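The epithelial against glandular count stayed at 23 to 29 members under every alternative. After mating, Benjamini-Hochberg gave 6 members for the bursa at 6 h and 2 at 24 h, 2 for parovaria at 6 h, 2 and 1 for the seminal receptacle at 6 h and 24 h, and 4 and 7 for spermathecae. DESeq2 gave 1 and 2 for the bursa, 2 and 5 for parovaria, 2 and 3 for the seminal receptacle and 2 and 7 for spermathecae. The run as a covariate gave 3 for the bursa at 24 h, 1 for the seminal receptacle at 6 h and 3 for spermathecae at 24 h, and 1 fit of all libraries gave 2, 1 and 2, with 1 for the seminal receptacle and 2 for parovaria at 24 h. Run 2 alone gave 0 at 24 h for spermathecae and parovaria, and leaving out 1 library gave 0 to 1 for parovaria. The cause of these shifts was not tested.

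The replicate number did not pair libraries: over 23 pairs the correlation of deviations lay between −0.186 and 0.543. The replicate block gave 2 calls for the bursa, 3 for spermathecae and 0 for parovaria at 24 h (Act87E, adjusted p = 0.363), and it gave 6 for the bursa against the oviduct.

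Between unmated tissues, Benjamini-Hochberg gave 16 members for the bursa against the oviduct, 22 for the bursa against the seminal receptacle, 11 for the oviduct against the seminal receptacle and 15 for spermathecae against parovaria. DESeq2 gave 11, 12, 4 and 1, run 2 alone 0, 0 and 0 for the first 3 pairs, and the run as a covariate 3 for the oviduct against the seminal receptacle and 2 for spermathecae against parovaria. Without the 10 most abundant genes the bursa against the seminal receptacle gave 3. Leaving out 1 library gave 2 to 6, 1 to 7 and 0 to 2 for the first 3.

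Against the whole female, Benjamini-Hochberg at 0.001 gave 27 for the bursa, 19 for the oviduct, 27 for the seminal receptacle, 9 for spermathecae, 13 for parovaria and 11 for fat body. DESeq2 gave 26, 27, 28, 9, 14 and 8, and 1 fit of all unmated libraries 25, 23, 22, 3, 5 and 7. Run 2 alone gave 0 for the bursa, no filter gave 2 for parovaria, and leaving out 1 library gave 0 to 0 for the bursa.

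Benjamini-Hochberg, an alternative chosen after seeing the data for the interaction, gave 1 member for parovaria and 2 for spermathecae. Shares not divided by length were, for Act87E, 10.6, 23.1 and 24.2% in the bursa, 14.1, 17.4 and 19.0% in the oviduct and 7.07, 18.5 and 16.6% in the seminal receptacle (unmated, 6 h, 24 h), 8.78% in unmated spermathecae and 9.16 and 17.7% in parovaria (unmated, 6 h). TpnC73F was 86.0% in the unmated oviduct, and TpnC25D 22.8% in the unmated bursa, 37.7% in spermathecae, 19.8% in parovaria and 40.7% in fat body. For 28 postmating fold changes, namely 25 called by either adjustment and those of bt, sls and Msp300 in the oviduct at 6 h, none changed sign in 394 settings, and the other printed fold changes were not examined in this way.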
